A study of Mus musculus with 6 samples.

Results

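Cell cycle and DNA replication genes were examined in cardiomyocyte-enriched cells from the hearts of C57BL/6J mice. The set held 44 genes chosen by name, from the D-type cyclins that open the cycle to the motors and kinases of mitosis. Of these, 36 had at least 1 probe detected (detection p-value under 0.05) on 2 or more of the 6 arrays and were measured, out of 10538 genes measured in all. RNA was hybridised to Illumina mouse BeadChips, 2 arrays in each of 3 groups. The sham group had sham surgery with no agent named. The TAC_DMSO group had transverse aortic constriction, a surgical narrowing of the aorta that loads the left ventricle, and received DMSO. The TAC_BIX group had the same constriction and received BIX-01294, an inhibitor of the histone H3 lysine 9 methyltransferases G9a and GLP, for 1 week from subcutaneous osmotic pumps. Because the labels name no DMSO for the sham mice, constriction and vehicle cannot be told apart in TAC_DMSO against sham. In TAC_BIX against sham, constriction and the delivery of the drug differ together and cannot be told apart either. The number of mice behind each array is not given in the sources used here, and the p-values measure the spread between these 6 arrays.

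A cell divides after D-type cyclins with CDK4 or CDK6, and cyclin E with CDK2, inactivate the retinoblastoma protein and free E2F factors, which switch on the genes of DNA replication. The MCM helicase is then loaded at origins, DNA is copied, and cyclin A and B with CDK1 drive mitosis, whose genes are held off outside the late cycle by the DREAM complex and switched on through MYBL2 and FOXM1. Most adult mouse cardiomyocytes have left the cycle, while leukocytes, fibroblasts and endothelial cells of the heart can divide. In RNA from a mixed population, fewer cells of a type and less RNA per cell cannot be told apart.

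Of the 8 genes that were not measured, Ccnb1 and Mki67 had no probe named for them in the annotation used here. Ccna2, Ccnb2, Ube2c, Bub1 and Kif20a had probes that were detected on 0 of 6 arrays, and Cdkn1b, the gene of the CDK inhibitor p27, was detected on 1. Of the 36 measured genes, 18 were detected on all 6 arrays, and the other 18 were detected on 2 to 5. Detection differed between replicates: sham replicate 1 detected 19 of the 36 genes and sham replicate 2 detected 32. TAC_DMSO replicate 1 detected 36, TAC_DMSO replicate 2 detected 31, and both TAC_BIX arrays detected 35. A gene that passed the filter through the arrays where it was high had to differ from those where it was low, so the counts and medians below describe the measured genes and support nothing on their own, and the same holds for the test of a gene not detected in 1 group. The number of probes detected on the whole array ran from 16634 to 18501 of 45281, and it was lowest on sham replicate 1. Of the 8 cardiomyocyte markers, the 7 that were measured (among them Myh6, Actc1, Myl2, Ttn and Ryr2) were detected on every array, so the labelled cell type was present in each. At least 6 markers each of macrophages and leukocytes, of fibroblasts and of endothelium were detected on every array as well.

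Signals are given below as normalized log2 values, and differences as the mean of the first group minus the mean of the second on that scale, with the standard error (SE) of the limma model fitted to all 6 arrays. A gene was called when its Benjamini-Hochberg adjusted p over all 10538 genes was under 0.05. The 3 comparisons share arrays, so their values stand side by side and are no separate evidence for each other.

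The genes called in any of the 3 comparisons were those of the D-type cyclins D1 and D2. These proteins activate CDK4 and CDK6 in early G1. Ccnd1 measured 9.0 and 9.04 on the sham arrays, 9.89 and 9.68 on the TAC_DMSO arrays, and 9.81 and 9.77 on the TAC_BIX arrays. All 4 arrays from constricted hearts lay above both sham arrays, and the TAC_DMSO and TAC_BIX arrays overlapped. Ccnd2 measured 10.07 and 9.85 in sham, 10.63 and 11.10 in TAC_DMSO, against 11.15 and 11.13 in TAC_BIX. Again no array from a constricted heart fell to the sham level.

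Against sham, Ccnd2 rose 2.27-fold in TAC_BIX, by 1.18 ± 0.21 log2 (SE, n = 2 per group, limma adjusted p = 0.0260), and Ccnd1 rose 1.71-fold, by 0.77 ± 0.17 (adjusted p = 0.0414). These were the 2 genes called of the 36 in that comparison, both higher, or 5.56% of them, where 6.65% of all genes were called, 2.74% higher and 3.91% lower. Called genes were no more frequent among the 36 than among all genes, and 5 of the 36 had an unadjusted p under 0.05 (13.9%, against 26.4% of all genes). With the vehicle the differences from sham were 0.76 ± 0.17 for Ccnd1 and 0.91 ± 0.21 for Ccnd2, and neither passed (adjusted p = 0.0764 and 0.0775). In TAC_DMSO against sham 0 of the 36 genes were called, against 0.408% of all genes (0.209% higher and 0.199% lower), and 8 had an unadjusted p under 0.05 (22.2%, against 22.4% of all genes). Drug and vehicle gave nearly the same Ccnd1 signal after constriction: the difference was 0.01 ± 0.17, with a 95% interval from -0.39 to 0.40. For Ccnd2 it was 0.27 ± 0.21, with an interval from -0.21 to 0.76. The calls in TAC_BIX against sham were lost for both genes when any of the 4 arrays compared was left out (adjusted p from 0.0875 to 0.241), with differences from 0.75 to 0.79 for Ccnd1 and from 1.07 to 1.29 for Ccnd2.

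Ccnd1 and Ccnd2 were each read by several probes. All 3 Ccnd1 probes were higher in TAC_BIX than in sham, by 0.77, 1.01 and 1.97 log2, and all were higher in TAC_DMSO than in sham, by 0.76, 0.94 and 1.17. The probe with the widest difference measured 6.32 and 6.24 in sham, 7.54 and 7.37 in TAC_DMSO, with 8.23 and 8.28 in TAC_BIX, and so also stood 0.80 higher with the drug than with vehicle, which the other 2 probes did not (0.06 and 0.01). Of the 4 Ccnd2 probes, 2 differed between TAC_BIX and sham by 1.18 and 1.20, and 2 dimmer ones by 0.23 each.

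**Figure D1:**
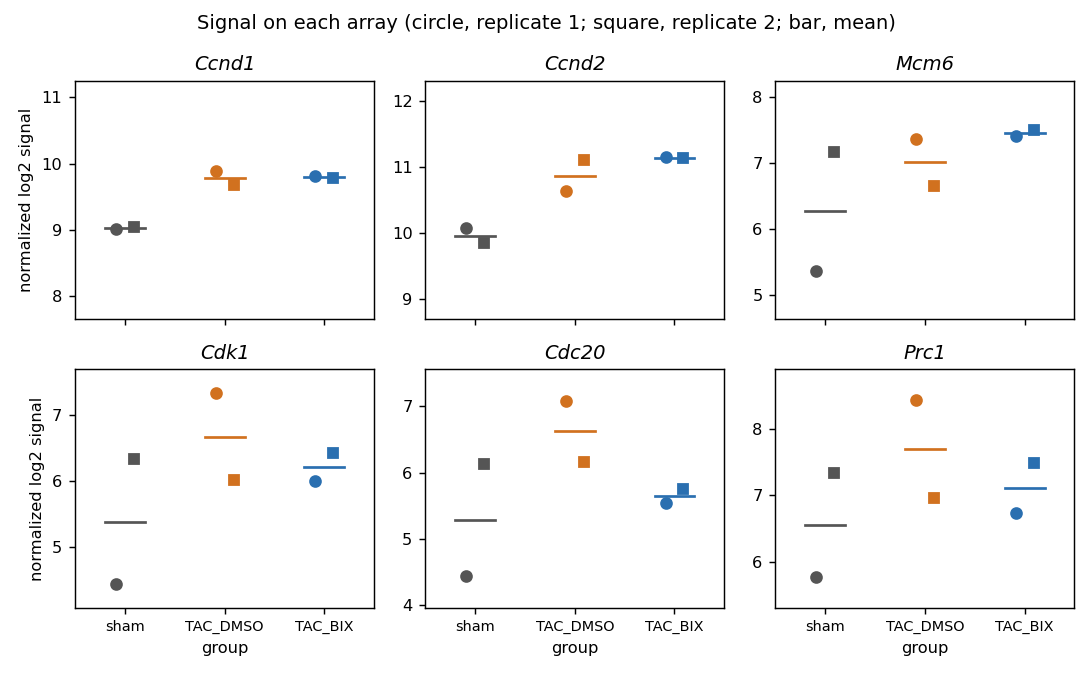
Normalized log2 signal (vertical axes, each spanning the same number of log2 units) of 6 genes in sham, TAC_DMSO and TAC_BIX (horizontal axes). Circles are replicate 1, squares replicate 2 and bars the mean of the 2 arrays. Replicates of Ccnd1 lie close together, as do those of Ccnd2 except in TAC_DMSO (10.63 and 11.10). Those of Cdk1, Cdc20 and Prc1 differ widely in sham and TAC_DMSO, and those of Mcm6 in sham and, less so, in TAC_DMSO (7.36 and 6.65).

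The remaining G1 genes differed less. Ccnd3, the third D-type cyclin gene, measured 9.74 and 9.98 in sham, 10.02 and 9.87 in TAC_DMSO, against 10.34 and 10.25 in TAC_BIX. Both TAC_BIX arrays were above all other arrays, by 0.35 ± 0.18 on average over TAC_DMSO and 0.43 ± 0.18 over sham (adjusted p = 0.318 and 0.175). Ccne2, which encodes a cyclin E, was dim, at 4.37 and 4.56 in sham, where it was not detected, 5.05 and 4.88 in TAC_DMSO, with 4.89 and 5.10 in TAC_BIX. Its difference from sham was 0.50 ± 0.18 in TAC_DMSO and 0.53 ± 0.18 in TAC_BIX (adjusted p = 0.167 and 0.121), with levels close to the detection limit in every group. The kinase genes Cdk2 and Cdk4 ran from 8.31 to 8.88 and from 8.82 to 9.34 over the 6 arrays, and their groups overlapped in 2 of the 3 comparisons or more, with probes that disagreed in sign. A dimmer Cdk2 probe measured 5.16 and 5.45 in sham, 6.02 and 6.16 in TAC_DMSO, against 6.22 and 6.59 in TAC_BIX, and its 3 groups did not overlap. For all 7 G1 cyclin and kinase genes the difference was above 0 in each of the 3 comparisons, with medians of 0.15, 0.09 and 0.43 for TAC_DMSO minus sham, TAC_BIX minus TAC_DMSO and TAC_BIX minus sham, against -0.01, 0.03 and -0.00 over all genes.

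Genes that restrain the cycle were measured with 3 of 4 members. Cdkn1a encodes p21, an inhibitor of cyclin-dependent kinases and a target of p53. It measured 8.23 and 8.24 in sham, 8.97 and 7.96 in TAC_DMSO, with 7.95 and 8.14 in TAC_BIX. TAC_DMSO replicate 1 was the highest of the 6 arrays and TAC_DMSO replicate 2 was among the lowest, so the difference from sham of 0.23 ± 0.31 was smaller than the gap between the replicates (adjusted p = 0.700), and the 3 probes disagreed in sign. Cdkn2c, which encodes the CDK4 and CDK6 inhibitor p18, ran from 6.77 to 7.46. Gmnn encodes geminin, which blocks a further loading of origins once S phase has begun. It measured 5.11 and 4.91 in sham, 5.21 and 5.53 in TAC_DMSO, against 4.77 and 4.69 in TAC_BIX, where it was not detected; it was also not detected on sham replicate 2. Gmnn had the smallest p of the set in TAC_BIX against TAC_DMSO and was at least 1.47-fold lower with the drug (-0.64 ± 0.19, limma adjusted p = 0.132). It was the 1 gene of 36 with an unadjusted p under 0.05 in that comparison (2.78%, against 19.8% of all genes).

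Origin licensing genes encode the loader CDC6 and the 6 subunits of the MCM2-7 helicase, and E2f1 encodes the factor that switches many of them on. Mcm6 measured 5.37 and 7.17 in sham, 7.36 and 6.65 in TAC_DMSO, with 7.41 and 7.5 in TAC_BIX. Sham replicate 1 was the lowest array by a wide margin, and sham replicate 2 lay inside the range of the TAC_DMSO arrays. The difference from sham was 1.19 ± 0.52 in TAC_BIX and 0.74 ± 0.52 in TAC_DMSO (adjusted p = 0.197 and 0.442), and the 3 kept probes agreed in sign in both. Mcm5 showed the same sham gap, 5.89 and 6.94, with 7.68 and 6.64 in TAC_DMSO, against 6.91 and 6.88 in TAC_BIX. Mcm2 was steadier, at 5.97 and 6.36 in sham, 6.13 and 6.4 in TAC_DMSO, with 6.43 and 6.41 in TAC_BIX. Its differences from sham were 0.10 ± 0.20 and 0.26 ± 0.20 in TAC_DMSO and TAC_BIX. Mcm3, not detected on 2 arrays, measured 4.51 and 5.44 in sham, 5.31 and 4.79 in TAC_DMSO, against 5.38 and 5.90 in TAC_BIX. Cdc6 measured 4.68 and 5.07 in sham, 5.51 and 5.15 in TAC_DMSO, with 5.35 and 5.39 in TAC_BIX, so both constricted groups lay above both sham arrays by a mean of 0.46 ± 0.21 and 0.50 ± 0.21 (adjusted p = 0.248 and 0.181). E2f1 was not detected in sham, at 4.84 and 4.73, and measured 5.90 and 5.17 in TAC_DMSO, against 5.44 and 5.00 in TAC_BIX, at least 1.47-fold and 1.18-fold higher than sham without passing (adjusted p = 0.169 and 0.357). All 8 genes of this role had a difference above 0 in TAC_DMSO against sham, with a median of 0.44, and 7 of 8 in TAC_BIX against sham, with a median of 0.46.

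The Mcm6 promoter is shown because it holds E2F motifs, described below. The RefSeq promoter table (GRCm38.p6, 250 bases before to 50 after the start) matched 30 of the 36 measured genes, and those of Ccnd1 and Ccnd2 are not shown. It was searched on both strands for 3 E2F motifs, spelled TTGGCGC in one form, TTCGCGC in another and TTCCCGC in the last, whose matches can overlap each other or a CCAAT box. Of the 18 measured genes with a promoter and no mitotic role, 8 held an E2F motif (44.4%), against 16.5% of all measured genes with a promoter. These 8 included Cdk2 and Cdkn2c, while the promoters of Mcm2, Pcna and Rrm2 held none. The genes were listed by name for their cell cycle roles, so this share only describes the list. The 250 bases before the Mcm6 start (chr1:128359706-128359955, minus strand, 5′ to 3′, E2F matches in capitals) read as follows.
Mcm6: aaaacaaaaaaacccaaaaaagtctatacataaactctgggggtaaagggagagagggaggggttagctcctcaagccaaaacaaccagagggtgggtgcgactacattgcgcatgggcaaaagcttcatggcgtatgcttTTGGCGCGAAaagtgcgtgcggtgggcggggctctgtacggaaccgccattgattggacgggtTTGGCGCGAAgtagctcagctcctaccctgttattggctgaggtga

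Genes of the replication fork and of nucleotide supply differed from each other. Pcna, which encodes the sliding clamp of DNA polymerases and is expressed in S phase, stayed within 5.17 to 5.50 on all 6 arrays. Read by 1 probe, Pcna lay not far above the lowest detected value of each array, 4.80 to 4.99. Its values were 5.50 and 5.44 in sham, 5.42 and 5.50 in TAC_DMSO, with 5.17 and 5.48 in TAC_BIX, with a difference of -0.02 ± 0.18 between TAC_DMSO and sham and a 95% interval from -0.44 to 0.41. Tyms, the thymidylate synthase gene, measured 4.75 and 5.79 in sham, 7.33 and 5.87 in TAC_DMSO, against 5.85 and 6.39 in TAC_BIX, and was not detected on sham replicate 1. All 4 arrays of constricted hearts were above sham, but 5.87 in TAC_DMSO lay close to 5.79 in sham, and the difference of 1.33 ± 0.51 did not pass (adjusted p = 0.181). Tk1, the thymidine kinase gene, measured 5.58 and 6.55 in sham, 7.07 and 6.24 in TAC_DMSO, with 5.76 and 6.20 in TAC_BIX, -0.67 ± 0.38 in TAC_BIX against TAC_DMSO (adjusted p = 0.369). Rrm1, the large subunit gene of ribonucleotide reductase, ran from 6.70 to 7.68 with sham replicate 2 highest, and Rrm2, the small subunit gene, lay near the detection limit, from 4.42 to 5.17.

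The mitotic genes carried the widest spread. They comprised 13 measured genes: the kinase genes Cdk1, Aurka, Aurkb and Plk1, the anaphase activator gene Cdc20, and 8 genes of the spindle, chromosomes and cytokinesis. They were grouped after their values were seen. Cdk1 encodes the kinase that triggers mitosis. It measured 4.44 and 6.33 in sham, 7.33 and 6.01 in TAC_DMSO, against 6.00 and 6.42 in TAC_BIX. Sham replicate 1 was below detection, TAC_DMSO replicate 1 stood highest, and the other 4 arrays lay between 6.00 and 6.42. Cdc20, which activates the anaphase-promoting complex, measured 4.43 and 6.13 in sham, 7.09 and 6.16 in TAC_DMSO, with 5.53 and 5.76 in TAC_BIX. Sham replicate 2 and TAC_DMSO replicate 2 had nearly the same value. Prc1, a microtubule bundler of the central spindle, measured 5.77 and 7.33 in sham, 8.44 and 6.97 in TAC_DMSO, against 6.73 and 7.49 in TAC_BIX, so all 3 groups overlapped. Top2a, the DNA topoisomerase gene that resolves sister chromatids, measured 4.41 and 5.16 in sham, 6.57 and 5.21 in TAC_DMSO, with 5.26 and 6.06 in TAC_BIX.

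The same order returned in the other spindle and chromosome genes. Birc5 encodes survivin, a subunit of the chromosomal passenger complex, and measured 4.6 and 6.52 in sham, 7.29 and 5.78 in TAC_DMSO, against 5.35 and 5.72 in TAC_BIX. Its gap of 1.92 between the sham arrays was the widest of the 36 genes, and its other 2 probes were also lowest on sham replicate 1 and highest on TAC_DMSO replicate 1. Cdca8, which encodes borealin of the same complex, measured 4.76 and 6.32 in sham, 6.89 and 5.52 in TAC_DMSO, with 5.15 and 5.49 in TAC_BIX. Cdca3, a trigger of mitotic entry, measured 5.39 and 6.61 in sham, 7.75 and 6.24 in TAC_DMSO, against 5.94 and 6.03 in TAC_BIX. In these 3 genes both TAC_BIX arrays were below both TAC_DMSO arrays, and sham replicate 2 was above both TAC_BIX arrays. Aurka, a spindle pole kinase gene, measured 4.47 and 5.15 in sham, 6.16 and 5.33 in TAC_DMSO, with 5.24 and 5.76 in TAC_BIX. Aurkb, the kinase gene of the passenger complex, departed from the order, with sham replicate 2 highest (6.09) and TAC_DMSO replicate 2 lowest (4.67).

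Sham replicate 1 was the lowest array for 12 of the 13 mitotic genes and TAC_DMSO replicate 1 the highest for 12 of 13. Over all genes these arrays were lowest for 16.9% and highest for 19.4%. Among the other 23 genes, sham replicate 1 was lowest for 14 and TAC_DMSO replicate 1 highest for 10. The replicates differed by more than 1 log2 for 10 of the 13 mitotic genes in sham and 9 of 13 in TAC_DMSO, where 2.28% and 3.28% of all genes did, and for 0 of 13 in TAC_BIX. The heat map of deviations shows this as a blue column for sham replicate 1 and a red column for TAC_DMSO replicate 1 in its lower blocks.

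**Figure D2:**
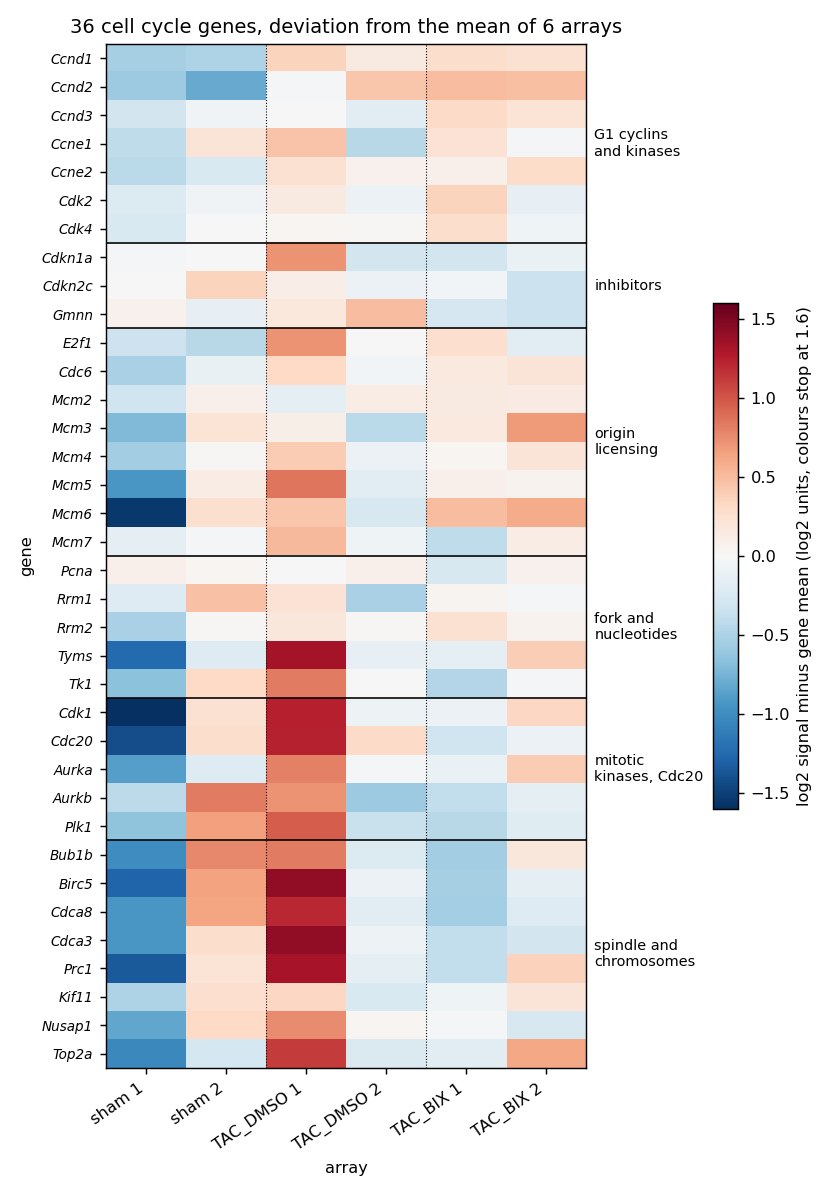
Deviation of each of the 36 measured genes (rows, grouped by role) from its own mean over the 6 arrays (columns), in log2 units, red above and blue below the mean. Sham 1 is the lowest and TAC_DMSO 1 the highest array for 12 of the 13 genes in the 2 lower blocks, while Ccnd1 and Ccnd2 at the top are low on both sham arrays.

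Against sham, the mitotic genes differed by a median of 0.94 log2 in TAC_DMSO and 12 of 13 were above 0, but 0 were called (limma adjusted p from 0.172 to 0.895). The largest differences were 1.34 ± 0.52 for Cdc20, 1.29 ± 0.62 for Cdk1 and 1.15 ± 0.60 for Prc1. Leaving out sham replicate 1 gave a median of 0.07, leaving out TAC_DMSO replicate 1 gave 0.24, and with both left out (an alternative chosen after the data were seen) it was -0.37. Over all 36 genes the median was 0.44, with 32 above 0 (88.9%, against 48.5% of all genes), and it was 0.10 without sham replicate 1, 0.23 without TAC_DMSO replicate 1 and -0.20 without both. The groups did not overlap for 12 of the 36 genes, all higher in TAC_DMSO. That is 33.3% against 24.9% of all genes, and 0 were lower, against 29% of all genes.

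In TAC_BIX against TAC_DMSO, 0 of the 36 genes were called, as were 0% of all genes. Of the 36, 14 were above 0 and 22 below, where 53.4% of all genes were above and 46.6% below. Below 0 were 12 of the 13 mitotic genes, with a median of -0.53, and 13 of the other 23 genes above 0, with a median of 0.03. Cdca3 differed by -1.01 ± 0.52, Birc5 by -1.0 ± 0.65 and Cdc20 by -0.98 ± 0.52 (limma adjusted p = 0.328, 0.433 and 0.345). Their 95% intervals, from -2.22 to 0.21, from -2.52 to 0.51 and from -2.19 to 0.24, all hold 0. Without TAC_DMSO replicate 1 the mitotic median was 0.03, and without TAC_DMSO replicate 2 it was -1.13. The groups did not overlap for 5 genes higher and 7 lower with the drug (13.9% and 19.4%, against 28.7% and 23% of all genes). In TAC_BIX against sham 23 of the 36 genes were above 0 (63.9%, against 49.6% of all genes). The mitotic median was 0.12, with 7 of 13 above 0 and 0 called, and it was -0.48 without sham replicate 1 and 0.81 without sham replicate 2. Of the 36 genes, 13 were higher without overlap in that comparison and 3 lower, or 36.1% and 8.33% against 29.8% and 28.6% of all genes. The 3 lower genes were Cdkn1a, Cdkn2c and Gmnn, and none passed (adjusted p = 0.733, 0.293 and 0.394). The other kept probes of Cdkn1a and Cdkn2c were split, at 0.15 and -0.82 for Cdkn1a and at 0.07 and -0.42 for Cdkn2c. The further inhibitor genes Cdkn2b and Cdkn2d, of the wider pathway list, stood at 0.33 and 0.15 (limma adjusted p = 0.551 and 0.646), with Cdkn1c at -0.14 (adjusted p = 0.755).

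**Figure D3:**
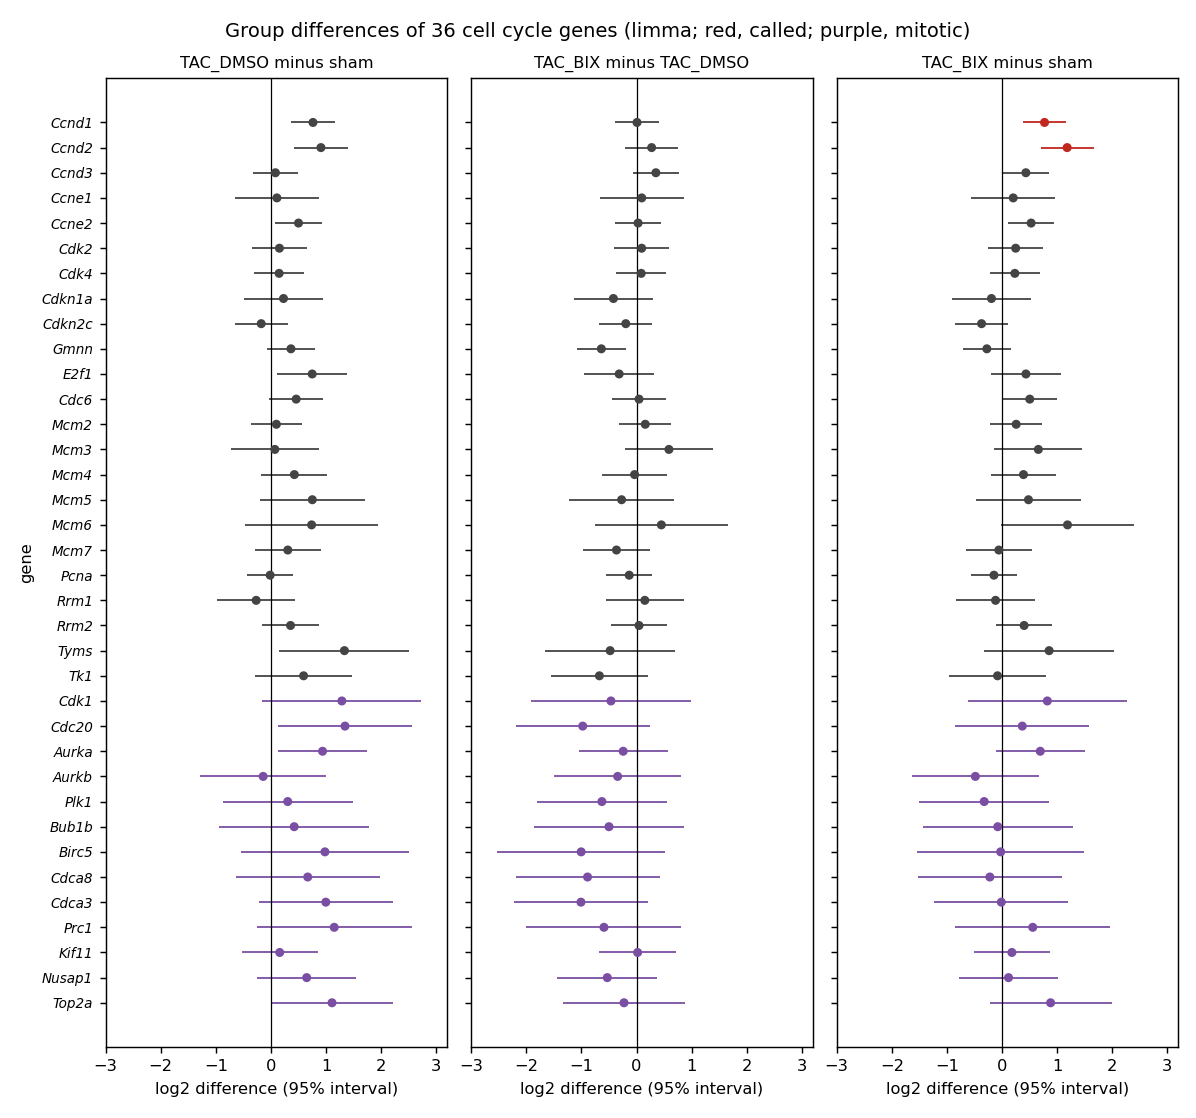
Differences of the 36 measured genes (rows) on the log2 scale (horizontal axes) in the 3 comparisons, as points with 95% intervals from limma. Red marks the 2 genes called, Ccnd2 and Ccnd1 in TAC_BIX minus sham, and purple the 13 mitotic genes, of which Birc5 has the largest SE (0.65) and Kif11 the smallest (0.30).

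The promoters of Cdk1 and Cdc20 are shown because most of the mitotic genes with a promoter hold the same short sequence. The motif is one already tied to late genes and was chosen with earlier results known, so its share only describes the list. The cell cycle homology region (CHR) is the element through which DREAM holds off late genes, and it usually lies near CCAAT boxes. It was searched as TTTGAA or TTCGAA on both strands (TTCGAA reads the same on both). It was present in 10 of the 12 mitotic genes with a promoter (83.3%). Of the 18 other measured genes of the set with a promoter, 2 held it (11.1%), as did 16.2% of all measured genes with a promoter. All 10 mitotic genes with a CHR also held CCAAT on either strand, a pair found in 6.69% of all measured genes with a promoter. A match describes the letters in this window and is not a shown binding site. The 250 bases before each start are given 5′ to 3′ on the minus strand, for Cdk1 (chr10:69352913-69353162) and Cdc20 (chr4:118437344-118437593), with CHR and E2F matches in capitals.
Cdk1: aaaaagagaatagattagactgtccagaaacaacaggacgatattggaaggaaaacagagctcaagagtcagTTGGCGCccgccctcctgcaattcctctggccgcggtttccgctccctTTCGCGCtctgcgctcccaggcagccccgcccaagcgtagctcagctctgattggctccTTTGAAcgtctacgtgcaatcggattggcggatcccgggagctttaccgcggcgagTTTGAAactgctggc
Cdc20: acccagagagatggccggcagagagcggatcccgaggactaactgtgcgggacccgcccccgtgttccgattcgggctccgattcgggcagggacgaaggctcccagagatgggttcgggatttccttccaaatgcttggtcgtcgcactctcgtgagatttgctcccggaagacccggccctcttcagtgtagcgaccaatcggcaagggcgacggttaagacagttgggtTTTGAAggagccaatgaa
Cdk1 held 2 CHR matches and 2 E2F matches, and Cdc20 held 1 CHR match beside 2 CCAAT boxes.

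The median of macrophage and leukocyte markers moved with that of the mitotic genes from array to array, but single markers differed in their order. Of that list, 8 of 10 genes were measured and all 8 were detected on every array. Their median deviation from each gene's mean was -0.65 and 0.47 in sham, 1.02 and -0.17 in TAC_DMSO, against -0.49 and -0.29 in TAC_BIX. That of the mitotic genes was -0.94 and 0.28, 1.12 and -0.16, and -0.39 and -0.09 on the same arrays. The summed signal of the leukocyte markers ran from 4072 to 7634 in sham, from 5568 to 12220 in TAC_DMSO and from 6103 to 8060 in TAC_BIX, and it was highest on TAC_DMSO replicate 1 and lowest on sham replicate 1. Singly, Adgre1, Laptm5 and Lyz2 were lowest on sham replicate 1. Cd52, Tyrobp, Aif1 and Fcer1g were lowest on TAC_BIX replicate 1, and Csf1r was lowest on TAC_DMSO replicate 2 and highest on sham replicate 2. Among the markers, Aif1 measured 6.11 and 7.5 in sham, 8.16 and 7.42 in TAC_DMSO, with 5.79 and 6.21 in TAC_BIX, and Cd52 measured 6.99 and 8.06 in the sham pair, 9.32 and 7.83 in the TAC_DMSO pair, and 6.35 and 7.04 in the TAC_BIX pair. These 2 were picked after their values were seen. In TAC_BIX against TAC_DMSO, 7 of the 8 markers were below 0 with a median of -0.81 and 0 were called; 4 did not overlap (Cd52, Tyrobp, Aif1 and Fcer1g), 3 that were below 0 overlapped (Csf1r, Adgre1 and Lyz2), and Laptm5 was at 0.09. Ptprc, the common leukocyte antigen, was detected on 1 array. The part of these cells in the differences of the mitotic genes was not tested.

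Other cell type lists did not follow the same order over all 6 arrays. Fibroblast markers (8 of 8 measured) stood highest on TAC_BIX replicate 2, at 0.66, and at 0.45 on TAC_DMSO replicate 1, with -0.33 and -0.31 on the sham arrays. Their summed signal was 9798 to 10052 in sham, 9350 to 14436 in TAC_DMSO and 13478 to 21008 in TAC_BIX. Endothelial markers (7 of 8) were at -0.13 and -0.41 in sham, -0.17 and 0.07 in TAC_DMSO, against -0.02 and 0.45 in TAC_BIX. The fibroblast deviation was lower on both sham arrays than on the other 4, as Ccnd1 and Ccnd2 were. However, it was -0.09 on TAC_BIX replicate 1 and -0.27 on TAC_DMSO replicate 2, close to sham. The summed fibroblast signal was lower on TAC_DMSO replicate 2 (9350) than on both sham arrays, while Ccnd2 measured 11.10 there, well above sham. Dcn was the brightest marker in that sum. On that array Lum (9.83), Col1a1 (8.20) and Mfap5 (9.26) exceeded both sham arrays. Dcn, Pdgfra, Dpt and Postn lay below both, and Tcf21 lay between them. The summed endothelial signal, 2442 and 2035 for the sham pair, was higher on every array from constricted hearts. It ran from 2527 on TAC_DMSO replicate 1 to 3652 on TAC_BIX replicate 2, with 3031 on TAC_DMSO replicate 2. The part of fibroblasts and endothelial cells in the cyclin differences was not tested. Erythroid markers (3 of 8 measured) were highest on TAC_DMSO replicate 2, at 2.39, and lowest on sham replicate 2, at -2.39. Of the 7 lymphocyte markers Cd79b alone was measured, and Cd3e, Cd3g, Cd2 and Ms4a1 were detected on 0 arrays. The median of cardiomyocyte markers stayed between -0.17, on TAC_DMSO replicate 1, and 0.18, on sham replicate 2. Singly, Tnni3 was called lower in TAC_BIX against sham (-0.80, limma adjusted p = 0.0391). It was 14.3% of the measured cardiomyocyte markers, against 3.91% of all genes called lower. The median of smooth muscle and pericyte markers (7 of 8) ran from -0.24 to 0.37. In TAC_BIX against sham, 2 fibroblast markers (Lum and Mfap5) were called higher, as were 1 endothelial (Pecam1) and 2 smooth muscle and pericyte markers (Rgs5 and Notch3). That is 25%, 14.3% and 28.6% of the measured markers of these lists, against 2.74% of all genes called higher. No leukocyte, lymphocyte or erythroid marker was called in that comparison.

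**Figure D4:**
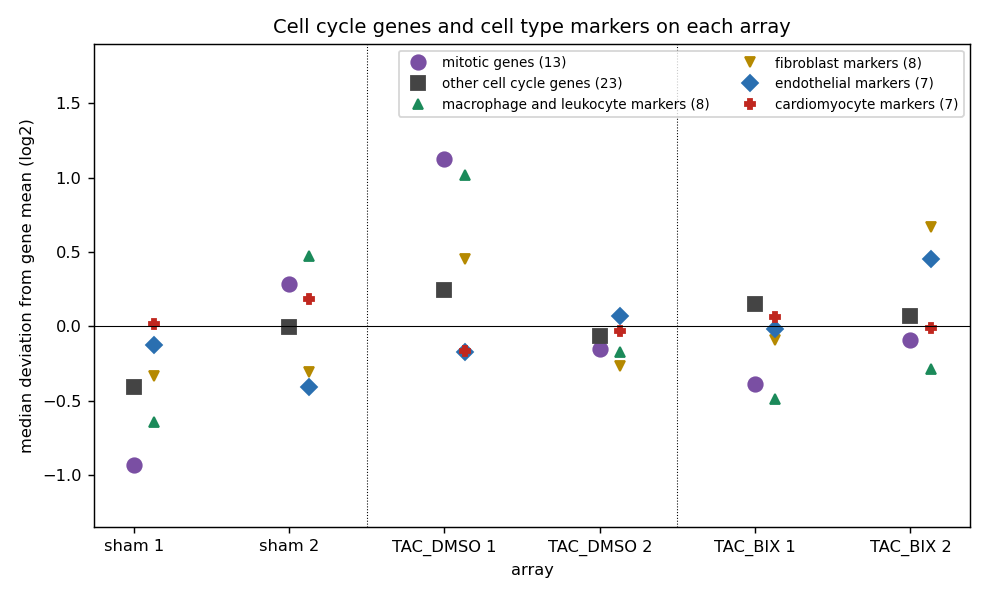
Median deviation from each gene's own mean (vertical axis, log2) on the 6 arrays (horizontal axis) for the 13 mitotic genes, the other 23 cell cycle genes and 4 lists of cell type markers. Mitotic genes and leukocyte markers are both lowest or near lowest on sham 1 (-0.94 and -0.65) and highest on TAC_DMSO 1 (1.12 and 1.02). The median of cardiomyocyte markers stays within -0.17 and 0.18.

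A wider list of 120 other genes of the same pathway had 77 measured members. In TAC_DMSO against sham 0 were called, against 0.408% of all genes, with a median of 0.04 and 44 of 77 above 0. E2f3, an activating E2F gene, and Chaf1a, a subunit gene of the histone chaperone that packs new DNA, came closest. E2f3 was not detected in sham, at 4.79 and 4.40, and measured 5.86 and 6.03 in TAC_DMSO, with 5.42 and 5.79 in TAC_BIX. Chaf1a was likewise not detected in sham, at 4.71 and 4.75, and measured 5.72 and 5.6 in TAC_DMSO, against 5.64 and 5.61 in TAC_BIX. They were at least 1.95-fold and 1.6-fold higher in TAC_DMSO (limma adjusted p = 0.0539 and 0.0564), and at least 1.55-fold and 1.57-fold higher in TAC_BIX (adjusted p = 0.0376 and 0.0276). Both passed the detection filter only through the 4 arrays of constricted hearts, so they had to differ from sham, and these p-values give no independent support.

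In TAC_BIX against sham 3 of the 77 were called higher and 1 lower, with a median of 0.06. That is 5.19% of the 77, against 6.65% of all genes, so calls were no more frequent in this list. Besides E2f3 and Chaf1a, Orc5, a subunit gene of the origin recognition complex, rose by 1.05 ± 0.17, from 7.49 and 7.59 in sham to 8.6 and 8.58 in TAC_BIX, with 8.15 and 8.0 in TAC_DMSO (adjusted p = 0.0223). Pold2, a subunit gene of DNA polymerase delta, fell by 0.84 ± 0.19, from 8.3 and 8.56 to 7.68 and 7.5 (adjusted p = 0.0417). With any 1 of the 4 arrays of this comparison left out, 0 to 216 genes of the whole array were called in place of 701. In TAC_BIX against TAC_DMSO 0 of the 77 were called, against 0% of all genes, and the median was -0.10. Rpa3, a gene of the single-strand binding complex, had the smallest p, at -0.78 ± 0.19 (adjusted p = 0.0896). The further 23 genes of spindle, kinetochore and cytokinesis had a median of 0.38 in TAC_DMSO against sham, with 17 of 23 above 0, and of -0.21 in TAC_BIX against TAC_DMSO, with 20 of 23 below 0. Array by array, these 23 deviated by a median of -0.4 and 0.2 in sham, of 0.38 and -0.03 in TAC_DMSO and of -0.12 and 0.06 in TAC_BIX, lowest on sham replicate 1 and highest on TAC_DMSO replicate 1 as for the mitotic genes. The 18 other fork genes had medians between -0.06 and -0.01 in the 3 comparisons.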

How the data were processed

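Expression was measured on 6 one-colour Illumina arrays, 2 in each group. Per the labels, Trizol-extracted RNA was cleaned on RNeasy columns and amplified to biotinylated cRNA. Per the submitters' processing notes, the tools were GenomeStudio 2011.1, lumi and limma, with no role stated for any of them. The authors deposited a signal intensity for each probe that was not normalized between arrays (lowest value 87.5) and its detection p-value. Their second deposited table holds log2 values that share 1 distribution on all 6 arrays.

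From the intensities, neqc (limma 3.58.1, R 4.3.3, offset 16) gave normalized log2 values; it infers the background from those detection p-values. Of 45281 probes, 19273 had a detection p-value below 0.05 on 2 or more arrays, and those with 1 gene in the platform annotation were used. The brightest such probe stood for its gene. A limma model with 3 group means (lmFit, eBayes, 3 residual and 4.62 prior degrees of freedom) was fitted over the 6 arrays, with two-sided p-values adjusted by Benjamini-Hochberg over 10538 genes. The procedure was tested on simulated data. A fold marked "at least" sets the higher group against the detection floor of the lower one. With 2 arrays a group, precision is low throughout.

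The members, lists, tests and promoter motifs were chosen with earlier results of these data known. Genes were named by rule: called genes, the 8 with the smallest p in each comparison, and a panel of 11 (Mki67, Top2a, Ccna2, Ccnb1, Cdk1, Pcna, Mcm2, Ccnd1, Ccnd2, Cdkn1a and Cdkn1b). Mcm5, Prc1, Aif1, Cd52 and the further probes of Ccnd1 and Cdk2 were added after their values were seen. Alternatives were background correction, offset, scaling, the authors' values, filter, probe choice, variance model, arrays fitted, replicate block and each array left out.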

Additional observations from a re-analysis of the deposited data

How the results depend on the processing

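Values are given in the order of the comparisons TAC_DMSO minus sham, TAC_BIX minus TAC_DMSO and TAC_BIX minus sham, and the causes of the changes were not tested. The 43 genes called in the first became 284 without background correction, 275 with an offset of 50, 956 with median scaling (97.5% higher, against 51.2%), 93 with the authors' values, 1 without the filter, 426 with an intensity trend and robust prior, and 0 with only the groups compared. Of the 36 cell cycle genes, 2, 2, 8, 1 and 2 were then called without background correction, with the offset, median scaling, the authors' values and the trend. In the second, 0 became 709, 563, 9, 642 and 699 under the same 5 settings, with 0 of the 36 called in each. In the third, 701 became 3771 with median scaling (96.6% higher, against 41.2%), 369 without the filter and 1136 with the trend, and the 2 cell cycle genes became 16 with median scaling and 1 with the mean of probes, where Ccnd2 was lost (adjusted p = 0.0947). Median scaling moved the median of all genes by 0.31, 0.23 and 0.53. It gave a median of 0.65 for the 36 genes in the third comparison, 0.12 above that of all genes, and turned Pcna to 0.24, 0.043 and 0.29 and Cdkn1a to 0.53 in the third. The authors' values gave a mitotic median of 0.20 in the first.

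With sham replicate 1 and TAC_DMSO replicate 1 both left aside, the median of the 36 genes was -0.20 in the first and -0.11 in the third comparison, the mitotic median was -0.37 in the first, and 8 genes in all were called in the second. Cdk1 turned to -0.32, 0.20 and -0.12, Cdkn1a to -0.28 and 0.085 in the first and second, Pcna to 0.051 in the first and Top2a to 0.45 in the second, and Ccnd1 lost its call in the third (adjusted p = 0.104).

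Leaving out 1 array at a time gave 0 to 166, 0 to 6 and 0 to 738 called genes, and 0 to 2 of the 36 called in the third. The mitotic median ran from 0.073 to 1.44 in the first, and the median of the 36 from -0.11 to 0.61 in the third. In the first, Pcna ran from -0.052 to 0.022, Mcm2 from -0.10 to 0.29 and Cdkn1a from -0.28 to 0.73. In the second, Top2a ran from -0.91 to 0.45, Pcna from -0.29 to 0.027, Ccnd1 from -0.10 to 0.11, Cdk1 from -1.13 to 0.20 and Cdkn1a from -0.92 to 0.085. In the third, Cdk1 ran from -0.12 to 1.77 and Pcna from -0.31 to 0.012.

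Replicate numbers are shared between groups with no stated pairing, and deviations of same-numbered arrays correlated at -0.24, -0.16 and 0.09 over all genes and at -0.76, -0.52 and 0.49 over the 36, so the numbers were not taken to pair the arrays. With a replicate block 0 and 253 genes were called in the first and the third comparison and 0 of the 36 in the third, where Ccnd1 and Ccnd2 had adjusted p = 0.0762 and 0.0561.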
